A study of Mus musculus with 44 samples.

Results

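Gene expression is described here for 8 mouse genes used as effector or surface markers of M cells: Serpinb1a, Serpinb6a, Ctsh, Tnfaip2, Marcksl1, Gp2, Clec2h and Lgals3. They were taken by name wherever the raw count tables held them, and the list was chosen with earlier results of these data known. All 8 were among the 21099 genes of the table of RANKL-treated organoids, and 6 were among the 9257 genes of the table of organoids given RANKL and CSRM617 (21126 genes over both tables). Gp2 and Tnfaip2 were not listed in the second table. The questions were on which day each gene came up, by how much, and whether it was found in the same cells as Spib.

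Single cells came from small-intestinal organoids grown from 1 female mouse that carried 1 Lgr5GFPDTR allele (genotype Lgr5GFPDTR/+), so every group shares that knock-in and that donor. Every organoid, day 0 included, was first given 3 µM CHIR99021, an inhibitor of the kinase GSK3, with 1.5 mM valproic acid, an inhibitor of histone deacetylases, and then a day without both. The 2 treatment arms were 100 ng/mL RANKL on days 0 to 9, with 3 plates a day, and 100 ng/mL RANKL with 40 µM CSRM617, a small molecule described as an inhibitor of the transcription factor ONECUT2, on days 0 to 6, with 2 plates a day. Cells were sorted by light scatter alone into plates of 384 wells, with no selection for M cells, so that a plate sum mixes all epithelial types of the culture. No group was kept without RANKL past day 0, which means that RANKL treatment and time in culture cannot be told apart, and the arm cannot be told apart from the set of plates.

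M cells are epithelial cells over the lymphoid follicles of the gut that take up particles and microbes from the lumen and pass them to immune cells below. The cytokine RANKL, acting through the receptor RANK and NF-kappaB signalling, makes intestinal precursors take this fate, and the Ets-family transcription factor Spi-B, encoded by Spib, is needed for M cells to mature. GP2, an anchored surface receptor for fimbriated bacteria, is the classical marker of mature M cells, whereas several of the other genes are also active in other epithelial or immune cells.

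Promoter windows are shown for 4 of the genes because their levels rose together while differing in onset and in their relation to Spib, the gene of an Ets factor. The letters GAGGAA were searched and are called the core below. The windows run from 250 bases before to 50 bases after a gene's annotated start (RefSeq, GRCm38.p6), read 5′ to 3′ on the gene's strand. Capitals mark GAGGAA or, where the core lies on the other strand, TTCCTC. Serpinb6a is shown at chr13:34002745-34003044 (minus strand), Clec2h at chr6:128662135-128662434 (plus strand), Marcksl1 at chr4:129513331-129513630 (plus strand) and Lgals3 at chr14:47373610-47373909 (plus strand).
Serpinb6a: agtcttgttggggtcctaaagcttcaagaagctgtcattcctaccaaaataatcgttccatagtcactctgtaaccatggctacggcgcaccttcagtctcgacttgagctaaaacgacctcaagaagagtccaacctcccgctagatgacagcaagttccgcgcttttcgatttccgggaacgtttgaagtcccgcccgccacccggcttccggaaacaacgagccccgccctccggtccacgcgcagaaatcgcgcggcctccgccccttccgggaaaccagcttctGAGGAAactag
Clec2h: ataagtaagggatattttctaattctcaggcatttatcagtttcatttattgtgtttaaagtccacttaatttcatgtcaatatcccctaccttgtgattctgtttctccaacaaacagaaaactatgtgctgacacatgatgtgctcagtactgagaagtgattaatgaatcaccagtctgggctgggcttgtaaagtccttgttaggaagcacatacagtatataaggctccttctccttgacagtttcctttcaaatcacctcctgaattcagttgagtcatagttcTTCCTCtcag
Marcksl1: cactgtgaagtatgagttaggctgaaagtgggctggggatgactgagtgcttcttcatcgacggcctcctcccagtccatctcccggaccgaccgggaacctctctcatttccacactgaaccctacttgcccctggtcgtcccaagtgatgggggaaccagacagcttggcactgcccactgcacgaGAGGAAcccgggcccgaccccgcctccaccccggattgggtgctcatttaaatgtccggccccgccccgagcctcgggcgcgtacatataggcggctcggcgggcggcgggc
Lgals3: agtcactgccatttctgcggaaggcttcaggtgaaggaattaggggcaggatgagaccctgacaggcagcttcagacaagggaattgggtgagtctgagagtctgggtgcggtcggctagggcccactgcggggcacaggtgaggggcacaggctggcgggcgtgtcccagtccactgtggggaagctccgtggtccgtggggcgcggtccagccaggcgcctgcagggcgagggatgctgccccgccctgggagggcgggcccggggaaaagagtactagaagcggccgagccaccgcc

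The core lies at base 290 of the Serpinb6a window, at base 291 of the Clec2h window and at base 189 of the Marcksl1 window, counted from 1 at the 5′ end, and the Lgals3 window does not hold it. The shorter letters GGAA, which the Lgals3 window does hold, were not searched. Gene spans given below come from GENCODE M21, and the Lgals3 window lies inside that gene's span, so its letters concern the RefSeq start and not the span's first base. Windows were found for 6 of the 8 genes and for Spib, 8 windows in all since Serpinb6a has 2. GAGGAA, searched on both strands, was in 4 of these 8 (the fourth being that of Gp2, at base 263) and in 28.3% of all 32851 windows. The longer form GAGGAAGT, which contains the core, was in none of the 8 and in 3.20% of all windows. The NF-kappaB motif was searched in a single 10-letter form, which was in none of the 8 and in 5.56% of all windows. Other forms of that motif were not searched, so the windows, that of Spib included, may hold them. These matches describe letters in a window and are no measured binding sites.

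After wells with under 1000 unique molecular identifiers (UMIs, each standing for 1 captured transcript molecule) were set aside, 6558 RANKL cells and 1673 RANKL+CSRM617 cells remained. Plates held 26 to 282 cells and 155940 to 1640523 UMIs with RANKL, and 24 to 223 cells and 47976 to 835772 UMIs with CSRM617 added. Median UMIs per cell ranged over plates from 2968 to 6960 and from 1800 to 3685, so the second arm was shallower. Other M cell markers, a list with none of the 8 genes, summed to 103 to 138 CPM (counts scaled to a common library total) per plate on day 0 and to 1379 to 1727 CPM on day 3 of RANKL, with 11 of 12 markers detected. The sum of macrophage and dendritic cell markers was at most 35.3 CPM in a RANKL plate, where Itgam, Itgax and Tyrobp had no row. It was at most 39.5 CPM in a RANKL+CSRM617 plate, where 3 of these 12 markers had a row. Levels below are CPM of plate sums after TMM scaling. Tests are edgeR's quasi-likelihood test on those sums with Benjamini-Hochberg adjustment over all genes tested, called at 0.05. The plate is the replicate. The labels do not say whether the plates of a day were separate cultures, so each p-value measures no more than how plates varied, and that variation may be technical.

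Spib itself (chr7:44525993-44532071, minus strand) had no UMI in 481 cells on day 0 of RANKL, which allows a share of up to 0.624% of cells with a UMI. Its plates stood at 332, 209 and 236 CPM on day 1, at 179, 224 and 148 CPM on day 2 and at 159, 201 and 129 CPM on day 3. From day 4, Spib lay between 1.00 and 55.4 CPM, below every plate of days 1 to 3. Day 1 was thus the day of its highest mean, 259 CPM ± 64.6 (SD, n = 3).

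On day 1 of RANKL, 6 of the 8 genes had risen against day 0, beside 11.4% of all 10000 genes tested, and the 6 are all that passed the filter on low counts. Over these 6 the median log2 fold change was 1.19, beside 0.00 over all genes tested. The same 6 stood above day 0 on day 2 (10.3% of all genes higher) and 5 did so on day 3 (10.2%). Passing the filter needed counts on some plates, so these 6 are not a sample of all 8 genes. In plate sums, more cells with a transcript and more transcript per cell cannot be told apart.

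Among the protease inhibitors, Serpinb1a, a clade B serpin that blocks neutrophil serine proteases inside cells, came up at once. Its plates stood at 412, 218 and 373 CPM on day 0, at 1800, 1757 and 1595 CPM on day 1, at 1621, 2010 and 1817 CPM on day 2, at 1140, 1225 and 865 CPM on day 3 and at 242, 220 and 192 CPM on day 4. All plates of days 1 to 3 were above all plates of day 0, and days 1 and 2 overlapped. The rise by day 1 was 2.28 ± 0.19 in log2 (SE, adjusted p = 1.92e-11). By day 3 the level had fallen by 0.76 in log2 from day 2 (adjusted p = 0.00674), a call that was lost without plate 3 of day 3 (-0.62, adjusted p = 0.0730).

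Serpinb6a, the clade B serpin that inhibits cathepsin G and related serine proteases, rose later. Plates stood at 497, 475 and 627 CPM on day 0, at 985, 874 and 812 CPM on day 1, at 1341, 1639 and 1605 CPM on day 2, at 1520, 1309 and 1281 CPM on day 3 and at 599.5, 473 and 488 CPM on day 4. Day 1 lay wholly between days 0 and 2, with no overlap on either side. The step from day 0 to day 1 was 0.72 ± 0.15 in log2 (SE, adjusted p = 0.000276) and that from day 1 to day 2 was 0.78 ± 0.14 (SE, adjusted p = 0.00106). Both serpins lie in a cluster of near-identical relatives on chromosome 13 (Serpinb1a at chr13:32842092-32851185 and Serpinb6a at chr13:33917918-34002794, GRCm38, minus strand), and how the authors' counting shared reads between them is uncertain.

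Ctsh (chr9:90054152-90076089, plus strand), the lysosomal cysteine protease cathepsin H, rose in smaller steps. Plate values were 94.8, 135 and 93.3 CPM on day 0, 261, 203 and 225 CPM on day 1, 274, 350 and 321 CPM on day 2, 351, 344 and 345 CPM on day 3 and 156, 149 and 149 CPM on day 4. Every plate of days 1 to 3 exceeded every plate of day 0. Day 3 was 1.80 ± 0.15 in log2 above day 0 (SE, adjusted p = 1.5e-11).

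Tnfaip2 (chr12:111442469-111455018, plus strand), a SEC6-related protein that takes part in the formation of membrane nanotubes, could not be followed: 2 UMIs were counted in 2 of 6558 RANKL cells, 1 of these cells with a Spib UMI. On day 0 it had no UMI in 481 cells, which allows up to 0.624% of cells. Its depth is too low to compare days.

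Marcksl1 (chr4:129513581-129515985, plus strand), a MARCKS relative that binds actin and the inner face of the membrane, was above day 0 on each of days 1 to 9. Plates stood at 62.6, 83.4 and 50.5 CPM on day 0, at 483, 416 and 414 CPM on day 1, at 384, 463 and 367 CPM on day 2, at 417, 461 and 346 CPM on day 3, and still at 163, 147 and 136 CPM on day 9. No plate of any later day reached down to day 0. The change was 2.87 ± 0.18 in log2 on day 1 (SE, adjusted p = 2.58e-14) and 1.31 ± 0.19 on day 9 (SE, adjusted p = 1.01e-06).

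Gp2 (chr7:119442537-119459285, minus strand), the receptor for fimbriated bacteria and the classical surface marker, was almost undetected. It had 12 UMIs in 9 of 6558 RANKL cells, 6 of the 12 UMIs falling on day 5 and 4 of those in 1 cell. Only 1 of the 9 cells also held a Spib UMI. On days 1 to 3, Gp2 had 1, 1 and 0 UMIs in 737, 698 and 810 cells, too few to show a change.

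Clec2h (chr6:128662385-128677374, plus strand), which encodes the C-type lectin-like surface protein Clr-f of gut epithelium, reached its midpoint last of the 6 genes, on day 3. Its plates stood at 83.7, 32.1 and 124 CPM on day 0, at 227, 196 and 152 CPM on day 1, at 357, 350 and 299 CPM on day 2, at 602, 722 and 535 CPM on day 3 and at 232, 234 and 123 CPM on day 4. Each day from 0 to 3 lay above the day before with no shared range. Day 3 was 2.72 ± 0.23 in log2 above day 0 (SE, adjusted p = 2.78e-11) and 0.88 ± 0.20 above day 2 (SE, adjusted p = 0.00486). The step from day 1 to day 2 was 0.80 ± 0.20 (SE, adjusted p = 0.0297) and was lost without any 1 of 5 of the 6 plates, with adjusted p between 0.0505 and 0.208.

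Lgals3 (chr14:47367751-47386160, plus strand), the beta-galactoside-binding lectin galectin-3, rose and fell within the first 3 days. Plates stood at 70.9, 51.3 and 87.6 CPM on day 0, at 162, 154 and 197 CPM on day 1, at 197, 243 and 185 CPM on day 2, at 112, 80.5 and 92.9 CPM on day 3 and at 5.04, 16.9 and 6.63 CPM on day 4. Days 1 and 2 lay above day 0, day 3 overlapped it, and day 4 lay below it. The log2 change against day 0 was 1.46 ± 0.22 on day 2 (SE, adjusted p = 3.08e-06), 0.33 ± 0.23 on day 3 (SE, adjusted p = 0.333) and -2.65 ± 0.40 on day 4 (SE, adjusted p = 6.37e-06). Without plate 2 of day 4, the day 4 value was -3.64.

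**Figure D1:**
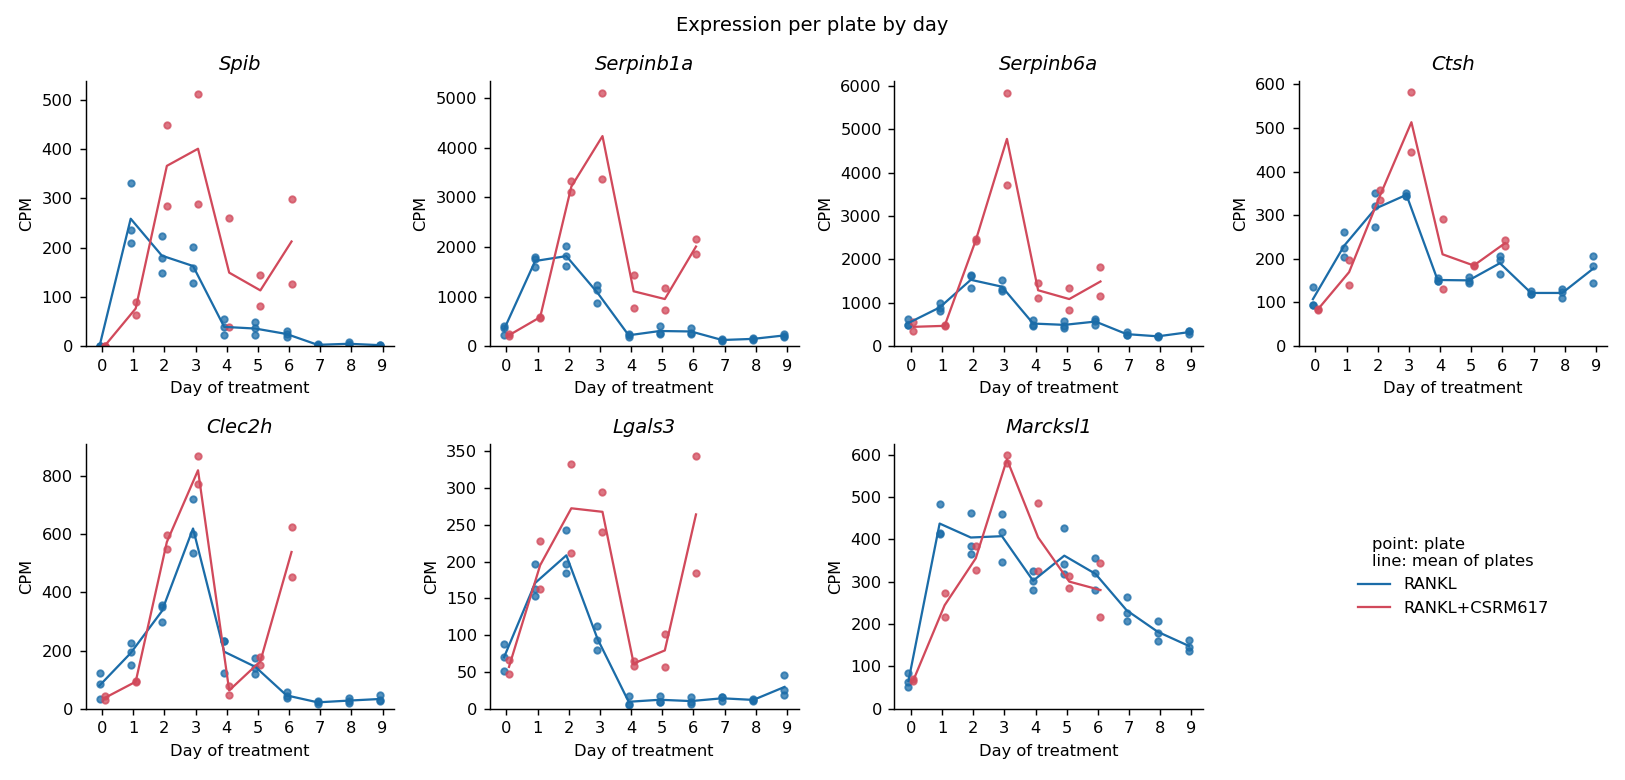
Levels of Spib and of the 6 genes with enough counts, in CPM (y axis, linear, from 0) by day of treatment (x axis), with 1 point a plate and a line through the day means, RANKL in blue and RANKL+CSRM617 in red. With RANKL alone, Marcksl1 was at 136 to 163 CPM on day 9 after 50.5 to 83.4 CPM on day 0, while Lgals3 was at 5.04 to 16.9 CPM by day 4.

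The order of onset was set by the first day on which the mean reached the midpoint between the day 0 mean and the highest day mean. With RANKL, Spib, Serpinb1a, Marcksl1, Lgals3 and Ctsh passed it on day 1, Serpinb6a on day 2 and Clec2h on day 3. On day 1, Marcksl1 had made all of its rise and Serpinb1a 93.3% of it, Lgals3 72.9%, Ctsh 51.1%, Serpinb6a 35.9% and Clec2h 20.7%. Ctsh stood so close to its midpoint that its place between day 1 and day 2 is within the spread of its plates. When each cell was thinned to 1000 UMIs and the share of cells with a UMI was used in place of CPM, each of these 7 genes kept its day.

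**Figure D2:**
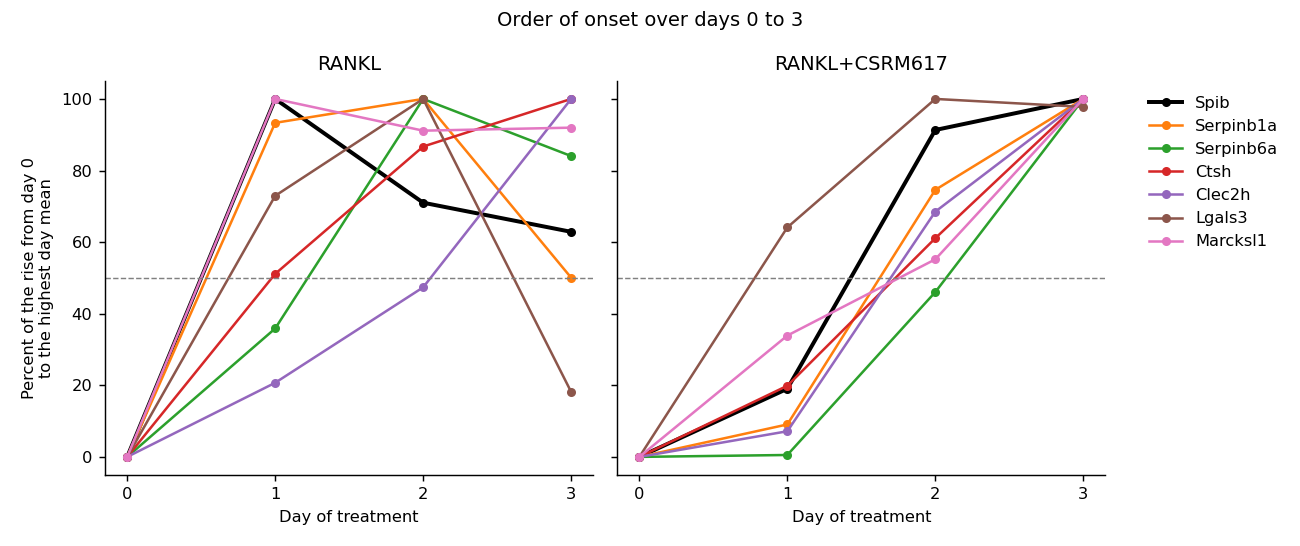
Percent of the rise from the day 0 mean to the highest day mean (y axis) on days 0 to 3 (x axis) for Spib and 6 genes, RANKL on the left and RANKL+CSRM617 on the right, with a dashed line at the midpoint. With RANKL, Serpinb1a had made 93.3% and Clec2h 20.7% of the rise on day 1. With CSRM617 added, these shares were 9.06% and 7.16%.

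From day 2 to day 4 the genes parted. Against day 1, 2 genes rose on day 2 (Clec2h and Serpinb6a, beside 0.900% of all genes). Between days 2 and 3, 1 gene rose (Clec2h, beside 2.65%) and 2 fell (Lgals3 by 1.13 and Serpinb1a by 0.76 in log2, beside 1.86% of all genes lower). The fall from day 3 to day 4 took in 5 genes, beside 5.02% of all genes lower. Lgals3 fell by 2.98, Serpinb1a by 2.31, Clec2h by 1.64, Serpinb6a by 1.41 and Ctsh by 1.20 in log2, with adjusted p between 3.41e-10 and 5.03e-06, and all their plates of day 4 lay below all those of day 3. Marcksl1 changed by -0.44 (adjusted p = 0.0657) and passed the test only without plate 3 of day 3 (-0.55, adjusted p = 0.0334). Without plate 2 of day 4 the value for Lgals3 was -3.98. With each cell weighted equally in its plate value, the steps of Clec2h to day 2 and to day 3 (0.82 and 0.98) and those of Lgals3 (-0.92) and Serpinb1a (-0.69) to day 3 no longer passed, with adjusted p between 0.0775 and 0.601. Here and below, that setting was tested with limma on log2 values in place of edgeR. A call lost in it may be due to the weighting or to the other test, which cannot be told apart. Summed enterocyte markers, all 16 of them detected, moved over the same days: their plates spanned 10548 to 13110 CPM on day 0, 6295 to 7566 CPM on day 2, 16369 to 17617 CPM on day 3 and 4584 to 12430 CPM on day 4. Other markers moved too: from day 3 to day 4, M cell marker sums went from 1379 to 1727 CPM down to 577 to 1018 CPM. Stem cell marker sums went from 3298 to 3864 CPM up to 11103 to 13423 CPM. In clusters formed without the 8 genes and named by markers, M cell-like cells made up 47.5% of cells on day 3 and 3.73% on day 4 (means of plates). The part of these cell types in the changes of the 8 genes was not tested.

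On day 4, 3 genes stood above day 0 (Marcksl1, Clec2h and Ctsh, beside 10.1% of all genes higher) and 2 below it (Lgals3 and Serpinb1a, beside 11.4% lower). Day 4 had the fewest cells, 197 in all, and 3 of these 5 calls rested on single plates. Clec2h (1.07, adjusted p = 0.00249) was lost without plate 2 of day 4 (0.84, adjusted p = 0.0641). Ctsh (0.60, adjusted p = 0.0111) was lost without plate 3 of day 0 (0.53, adjusted p = 0.0735). Serpinb1a (-0.71, adjusted p = 0.0129) was lost without plate 1 of day 0 (-0.49, adjusted p = 0.157) or plate 3 of day 4 (-0.64, adjusted p = 0.0626).

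Later days separated genes that stayed up from genes that sank below their start. Day 5 had 3 genes higher (17.2% of all genes) and 1 lower (17.2%), and day 6 had 2 higher (18.9%) and 2 lower (19.4%). Day 7 had 1 higher (16.5%) and 4 lower (16.5%), day 8 had 1 higher (17.3%) and 4 lower (17.8%), and day 9 had 2 higher (18%) and 4 lower (18.4%). Marcksl1 was above day 0 on all 9 days. On day 9 Ctsh was also above day 0 (0.85 ± 0.16 SE in log2, adjusted p = 4.61e-05), whereas Clec2h (-1.45), Lgals3 (-1.33), Serpinb6a (-0.74) and Serpinb1a (-0.71) were below it. The day 9 call of Serpinb1a was lost without plate 1 of day 0 (-0.45, adjusted p = 0.116) or plate 1 of day 9 (-0.51, adjusted p = 0.0652), and with each cell weighted equally (-0.41, adjusted p = 0.0870).

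Between neighbouring late days, 1 gene fell from day 5 to day 6 (Clec2h by 1.64 in log2, adjusted p = 5.71e-05, beside 3.13% of all genes lower). From day 6 to day 7, 4 genes fell, beside 3.29% lower: Serpinb1a by 1.27, Clec2h by 1.05, Serpinb6a by 1.04 and Ctsh by 0.64. The fall of Clec2h was lost without any 1 of 4 plates (-1.15 to -0.85, adjusted p 0.0579 to 0.189), those being plates 2 and 3 of day 6 and plates 1 and 2 of day 7. From day 8 to day 9, 3 genes rose, beside 2.01% of all genes higher. Lgals3 went from 10.1, 12.4 and 13.7 CPM to 25.2, 45.8 and 18.1 CPM (1.31 ± 0.34 SE in log2, adjusted p = 0.0225), with no shared range. Ctsh (0.55, adjusted p = 0.0203) and Serpinb6a (0.52, adjusted p = 0.0409) rose less. All 3 of these calls were fragile: that of Lgals3 was lost without any plate of day 8 or plate 2 of day 9 (0.83 to 1.42, adjusted p 0.0503 to 0.310). The call for Ctsh was lost without plates 1 or 3 of day 8 or plates 2 or 3 of day 9 (0.45 to 0.57, adjusted p 0.0582 to 0.151). The call for Serpinb6a was lost without any plate of day 8 or plates 2 or 3 of day 9 (0.47 to 0.56, adjusted p 0.0829 to 0.166). The day 5 call of Clec2h against day 0 (0.61, adjusted p = 0.0489) was lost without plates 1 or 2 of day 0 or plates 2 or 3 of day 5 (0.48 to 0.64, adjusted p 0.0746 to 0.129), and its day 6 call (-1.03, adjusted p = 0.00256) without plate 3 of day 0 (-0.65, adjusted p = 0.112). With each cell weighted equally and tested with limma, both calls were lost, as was that of the step from day 5 to day 6 (-1.22, adjusted p = 0.0670).

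Relatives of the 8 genes, listed by family, moved in both directions. On day 1 of RANKL, 0 of 8 other cathepsins tested rose and 2 fell, by the same edgeR test (Ctsa by 1.03 and Ctsb by 0.83 in log2), beside 12.3% of all genes that fell. Of 6 other galectins tested, 0 rose and 4 fell on day 1 (among them Lgals9 by 2.36, Lgals4 by 0.93 and Lgals12 by 0.86). On day 3, when 10.2% of all genes fell, Ctss rose by 0.84 and Ctsc fell by 1.18 in log2. Among clade B serpins 2 others were tested and Serpinb9, an inhibitor of granzyme B, rose on day 1 (3.40). Marcks rose by 0.76 on day 1, Clec2e, a paralog of Clec2h, fell by 1.16 and the SEC6-related Exoc3l4 fell by 1.36. Over the 10 other M cell and follicle-associated epithelium genes tested, Spib among them, 10 rose on day 1 (beside 11.4% of all genes higher), 10 on day 2 (10.3%) and 10 on day 3 (10.2%). Their median log2 change on day 3 was 3.74, beside -0.01 over all genes. The rest of that list had no row or did not pass the filter on low counts. A gene without counts on day 0, as Spib was, passes that filter only through later days, so these counts were partly fixed in advance. Largest on day 3 were Rac2 (6.73), a small GTPase, the chemokine genes Ccl9 (6.28) and Ccl20 (4.19), and Anxa5 (4.73), a phospholipid-binding annexin.

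The genes whose day means ran most alike were found by Pearson's r over the 10 RANKL day means of log2(CPM + 1), among 8078 genes with a highest day mean of at least 20 CPM. For Serpinb1a they were Smad7 (0.98), Id3 (0.96) and Rilpl2 (0.96), and for Serpinb6a Nsfl1c (0.99), Abcd3 (0.98) and Nostrin (0.97). Those of Ctsh were Eea1 (0.98), Onecut2 (0.97) and Tspan8 (0.97). Clec2h ran closest to Ms4a10 (0.98), Mxd1 (0.98) and Atrn (0.97), Lgals3 to S100a16 (0.97), Anxa2 (0.97) and Perp (0.96), and Marcksl1 to Megf9 (0.98), Trpm6 (0.98) and Rac2 (0.98). Among the genes themselves, Serpinb1a and Serpinb6a were close (0.93) and Lgals3 and Marcksl1 were not (0.14). All of these points share libraries and scaling, so the values are a description.

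The next comparison asked whether the genes were higher in cells that held a Spib UMI. On days 1 to 3 of RANKL, 852 of 2245 cells did, and each of the 9 plates was split into a sum over cells with Spib and a sum over cells without, compared within plates. Of the 8 genes, 5 were higher in cells with Spib, beside 5.56% of 8439 genes tested, and the median log2 difference of the 6 genes tested was 0.91, beside -0.01 over all genes. A cell without a Spib UMI can still have expressed it. Cells with Spib were somewhat deeper (median UMIs 6186 against 5673 on day 1, 6589 against 5559 on day 2 and 5603 against 4842 on day 3).

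Serpinb1a differed most. Its sums over cells with Spib ran over the 9 plates from 1711 to 3635 CPM with a median of 2844, and those over cells without from 476 to 767 CPM with a median of 720. The ranges did not overlap, and the difference was 2.04 ± 0.06 in log2 (SE, adjusted p = 1.36e-23). By the size of its log2 difference it ranked 3 among the genes called higher. Serpinb6a followed with 1084 to 2642 CPM (median 1927) against 508 to 1046 CPM (median 864), higher in cells with Spib in 9 of 9 plates, by 1.27 ± 0.05 in log2 (SE, adjusted p = 1.72e-19).

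Clec2h was higher with Spib in 9 of 9 plates, while its ranges over plates overlapped and its level climbed by day. It ran from 221 to 1003 CPM (median 507) with Spib and from 78.8 to 528 CPM (median 235) without, a difference of 1.08 ± 0.07 in log2 (SE, adjusted p = 2.84e-14). Ctsh ran from 246 to 514 CPM (median 398) against 145 to 291 CPM (median 235), higher in 9 of 9 plates by 0.73 ± 0.07 (SE, adjusted p = 5.45e-09). Marcksl1 ran from 377 to 587 CPM (median 528) against 308 to 421 CPM (median 357), higher in 9 of 9 plates by 0.45 ± 0.06 (SE, adjusted p = 1.61e-06). When cells were thinned to 1000 UMIs before Spib was looked for, Marcksl1 no longer passed (0.36, adjusted p = 0.182) and the other 4 still did.

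Lgals3 did not pass the test. It ran from 63.7 to 262 CPM (median 151) in cells with Spib and from 75.4 to 274 CPM (median 162) in cells without, and was higher with Spib in 5 of 9 plates. The difference was -0.04 ± 0.11 in log2 (SE, adjusted p = 0.872). By day the difference was -0.42 ± 0.17 on day 1 (adjusted p = 0.274), 0.23 ± 0.16 on day 2 (adjusted p = 0.564) and 0.07 ± 0.21 on day 3 (adjusted p = 0.924), all SE. With at least 2 Spib UMIs asked of a cell, day 2 passed the test (0.67 ± 0.16 SE, adjusted p = 0.00510).

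**Figure D3:**
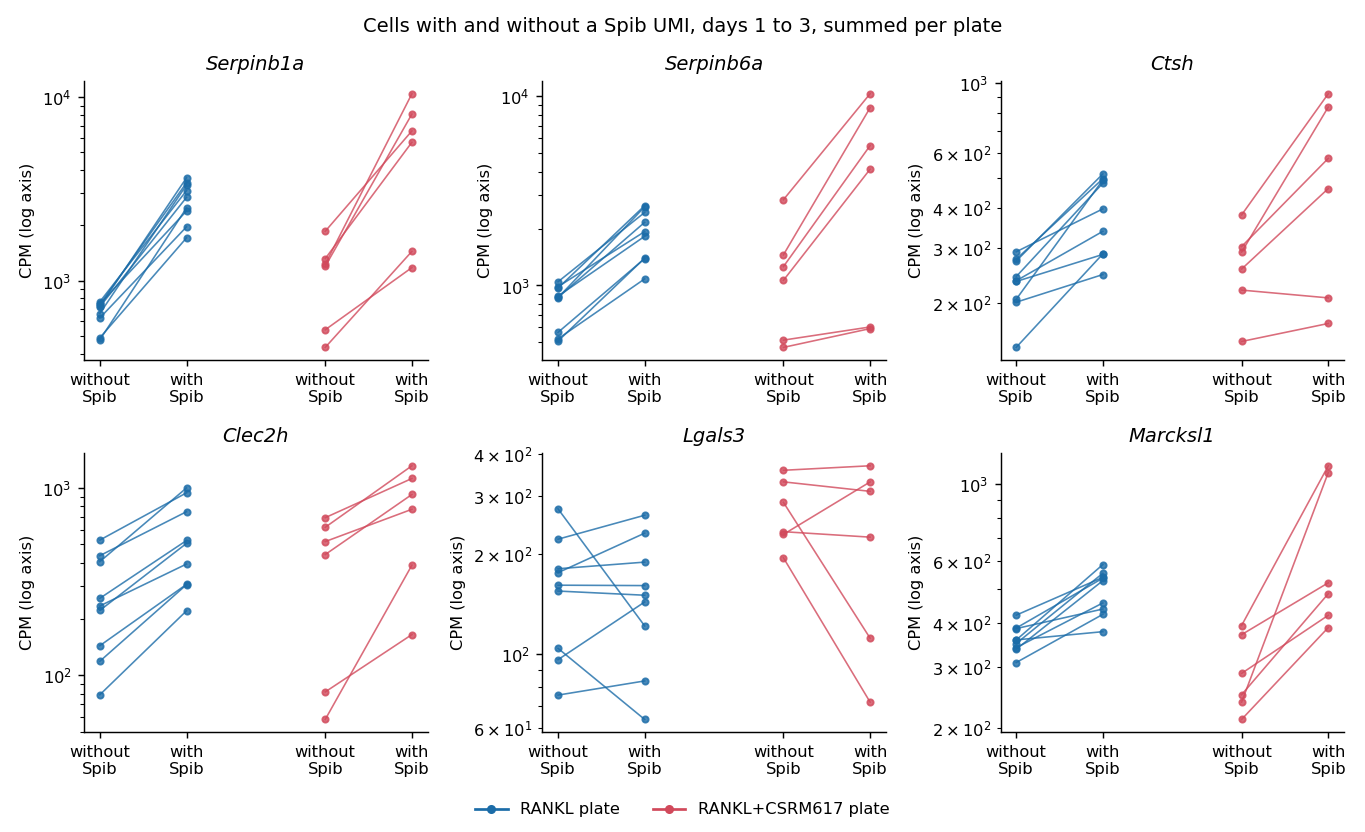
Levels in CPM (y axis, log scale) of 6 genes in cells without and with a Spib UMI on days 1 to 3, each line joining the 2 sums of 1 plate, with 9 RANKL plates in blue and 6 RANKL+CSRM617 plates in red. Every RANKL line rises for Serpinb1a, Serpinb6a, Ctsh, Clec2h and Marcksl1, and 5 of 9 rise for Lgals3.

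Day by day, the same comparison called 5 genes on day 1 (beside 1.28% of all genes), 5 on day 2 (1.87%) and 5 on day 3 (1.77%), Lgals3 on none. DESeq2 called 3, 4 and 4 on these days, and edgeR called 3 on each day in thinned cells. With at least 2 Spib UMIs it called 5, 6 and 5. In log2, the Spib difference of Serpinb1a took the values 2.00, 2.18 and 1.95 over the 3 days, and that of Serpinb6a the values 1.27, 1.38 and 1.16. Calls for the smaller differences rested on single plates: Ctsh on day 1 (0.49, adjusted p = 0.0430) was lost without any 1 of its 3 plates (0.30 to 0.63, adjusted p 0.0581 to 0.532). Marcksl1 was lost on day 1 without plates 1 or 2 (0.43 and 0.29), on day 2 without plates 1 or 2 (0.44 and 0.24) and on day 3 without plate 1 (0.46). Whether the difference changed between days 1 and 3 was tested directly: 0 of the 8 genes passed edgeR's test, beside 0.154% of all genes higher and 0.0118% lower, 0 at an unadjusted p under 0.05 and 0 with DESeq2. For Clec2h the change was -0.31 ± 0.16 in log2 (SE, adjusted p = 0.725).

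Cells were also thinned to an equal depth of 1000 UMIs. Spib was then found in 140 of 737 cells on day 1, 86 of 698 on day 2 and 91 of 810 on day 3. Intervals are exact Clopper-Pearson intervals at 95% and cover counting error only. Serpinb1a was found in 67.9% of 140 cells with Spib (interval 59.4% to 75.5%) and 48.7% of 597 without (44.7% to 52.8%) on day 1. On day 2 the shares were 80.2% of 86 and 49.3% of 612, and on day 3 70.3% of 91 and 38.1% of 719. Before thinning, the day 1 shares of Serpinb1a were 94.5% and 83.9%.

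Serpinb6a was found in 58.6%, 77.9% and 71.4% of cells with Spib on days 1, 2 and 3, against 40.9%, 55.2% and 57.2% of cells without. For Clec2h the shares were 20.7%, 30.2% and 50.5% against 9.88%, 17.5% and 32.0%, rising by day in both kinds of cell. Ctsh had 24.3%, 34.9% and 31.9% against 16.8%, 21.1% and 24.5%. The intervals for Serpinb1a, Serpinb6a and Clec2h lay apart on all 3 days, and those for Ctsh lay apart on day 2 only. Marcksl1 had 35%, 38.4% and 40.7% against 31.5%, 28.6% and 29.5%, and Lgals3 had 12.1%, 11.6% and 8.79% against 10.6%, 10.1% and 9.04%, with overlapping intervals on all 3 days for both.

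**Figure D4:**
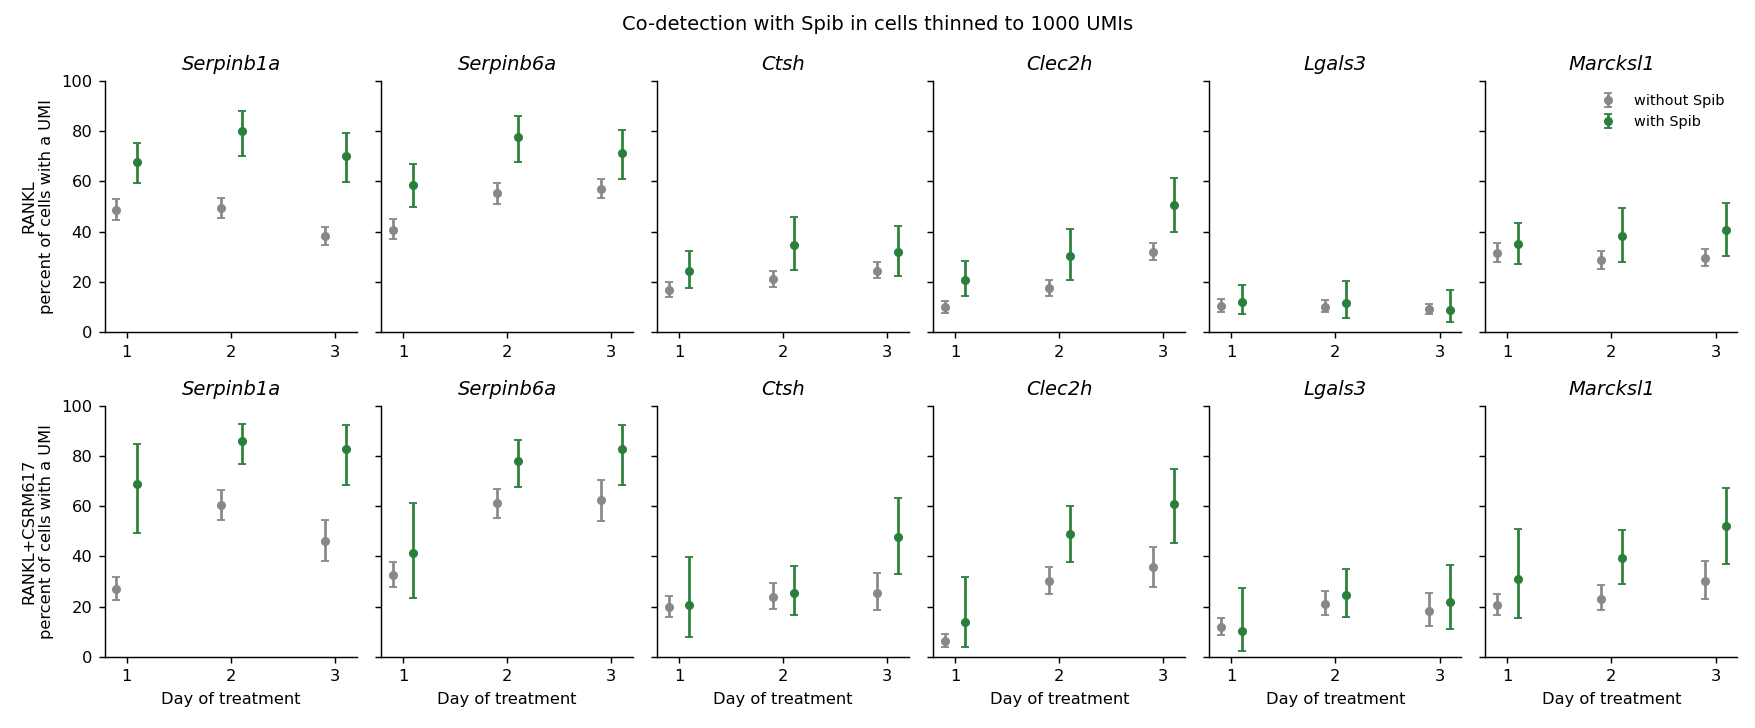
Percent of cells with a UMI of each gene (y axis) by day (x axis) among cells with (green) and without (grey) a Spib UMI, after thinning every cell to 1000 UMIs, RANKL above and RANKL+CSRM617 below, with exact 95% intervals over cells. On day 2 of RANKL Serpinb1a was found in 80.2% of cells with Spib and 49.3% of cells without.

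A thinned cell with Spib held on average 2.19 of the 6 genes on day 1, 2.73 on day 2 and 2.74 on day 3, against 1.58, 1.82 and 1.90 in cells without. Over days 1 to 3, Spib and Serpinb1a were found together 1.47 times as often as the product of their shares, and Spib and Clec2h 1.44 times. Spib gave 1.32 times with Ctsh, 1.26 with Serpinb6a, 1.21 with Marcksl1 and 1.10 with Lgals3. The pair Ctsh and Clec2h gave 1.50 times, above every Spib pair, and Lgals3 with Marcksl1 gave 0.89 times. These ratios pool 2245 cells of 9 plates and carry no test.

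None of the 5 genes higher in cells with Spib was limited to cells with it. On day 0, when no cell held Spib, Serpinb1a had a UMI in 69.2% of cells, Serpinb6a in 82.1%, Ctsh in 32.6%, Clec2h in 27.7% and Marcksl1 in 19.1%, at a median of 4927 UMIs per cell. Cells were also clustered without the 8 genes. Over days 1 to 3 of RANKL, 971 cells were M cell-like, 302 enterocyte-like and 375 cycling-like by markers, Spib being 1 of the M cell markers. Serpinb1a stood at 2492 CPM ± 929 (SD, n = 9 plates) in M cell-like cells, at 1936 ± 863 in enterocyte-like cells and at 633 ± 266 in cycling-like cells. For Clec2h the enterocyte-like level was the higher, 1010 CPM against 448 CPM in M cell-like cells and 63.5 CPM in cycling-like cells. At a finer clustering, with 348 M cell-like cells, these became 837 and 839 CPM for Clec2h and 1443 and 4505 CPM for Serpinb1a. Of the 6 genes, Serpinb1a was above the enterocyte-like level at all 3 resolutions tried, while the order for Serpinb6a, Ctsh, Clec2h, Marcksl1 and Lgals3 turned with the resolution. These class levels are a description, since the clusters and the values come from the same cells.

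With CSRM617 present, 5 genes stood on day 1 above day 0 of that arm, beside 2.08% of 6499 genes tested. All 6 did so on day 2 (5.46%) and on day 3 (10.0%), 3 on day 4 (2.17%), 5 on day 5 (3.99%) and 6 on day 6 (4.55%). Serpinb6a was the gene not called on day 1, at 453 and 481 CPM after 546 and 341 CPM on day 0 (0.06 ± 0.29 SE in log2, adjusted p = 0.971). On day 3 the median log2 change of the 6 was 3.27, beside -0.05 over all genes.

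Serpinb1a stood at 204 and 235 CPM on day 0, 593 and 574 CPM on day 1, 3106 and 3329 CPM on day 2, 3376 and 5100 CPM on day 3 and 1859 and 2158 CPM on day 6 of RANKL+CSRM617. Serpinb6a stood at 2419 and 2460 CPM on day 2, 3724 and 5831 CPM on day 3 and 1147 and 1832 CPM on day 6. Clec2h stood at 45.1 and 28.7 CPM on day 0, 90.8 and 95.1 CPM on day 1, 771 and 868 CPM on day 3, 48.7 and 77.6 CPM on day 4 and 452 and 625.3 CPM on day 6. All 3 had their highest mean on day 3, a lower mean on day 4 and a higher mean on day 6 than on day 4. Spib also took this course (289 and 513 CPM on day 3, 126 and 299 CPM on day 6). Day 6 was not tested against day 4, which held 67 cells, 10 Clec2h UMIs and 34 Spib UMIs in this arm. Plates of days 4 and 6 overlapped for Serpinb6a (1120 to 1456 CPM on day 4) and for Spib (38.8 to 260 CPM on day 4). Day 3 against day 0 gave 4.28 ± 0.31 for Serpinb1a (SE, adjusted p = 7.94e-10), 3.42 ± 0.31 for Serpinb6a and 4.41 ± 0.28 for Clec2h in log2.

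Calls on days 2 and 3 held without each plate in turn, and some on other days did not. With each cell weighted equally, 4 of the 5 day 1 calls were lost (adjusted p 0.0550 to 0.620), all but that of Marcksl1. On day 1, Clec2h (1.27) was lost without plate 2 of day 0 or either plate of day 1 (1.01 to 1.30, adjusted p 0.0643 to 0.164). Ctsh (1.03) was lost without either plate of day 0 or plate 1 of day 1 (0.73 to 1.03, adjusted p 0.137 to 0.435), and Serpinb1a (1.42) without plate 1 of day 0 (1.32, adjusted p = 0.0721). On day 4, Serpinb6a (1.51) was lost without plate 2 of day 0 (1.18, adjusted p = 0.0647), and Serpinb1a went from 2.38 to 1.76 without plate 1 of day 4. On day 5, Ctsh (1.14) was lost without any 1 of 4 plates (1.09 to 1.15, adjusted p 0.0610 to 0.146) and Serpinb6a (1.27) without plate 2 of day 0 (0.965, adjusted p = 0.115) or plate 2 of day 5 (0.84, adjusted p = 0.183). On day 6, Ctsh (1.49) and Lgals3 (2.18) were lost without plate 1 of day 6 (1.44 and 1.66, adjusted p 0.0637 and 0.0553).

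By midpoint, Lgals3 was at onset on day 1 with CSRM617 present (64.1% of its rise), Serpinb1a, Ctsh, Clec2h, Marcksl1 and Spib on day 2 and Serpinb6a on day 3. On day 1, Marcksl1 had made 33.9% of its rise, Ctsh 19.9%, Serpinb1a 9.06%, Clec2h 7.16% and Serpinb6a 0.532%. On thinned shares of cells all 6 genes and Spib reached the midpoint on day 2.

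Set side by side on 1 scale, the arms differed in both directions. Already on day 0, Clec2h was lower in the CSRM617 plates (47.4 and 30.2 CPM against 80.9, 32.8 and 117 CPM, -1.15 ± 0.34 SE in log2, adjusted p = 0.0225), 1 of the 8 genes beside 7.07% of 8766 genes lower. That call was lost without plate 3 of the RANKL arm (-0.79, adjusted p = 0.198) or either CSRM617 plate (-1.59 and -0.93, adjusted p 0.0642 and 0.202). On day 1, 4 genes were lower with CSRM617, beside 7.51% of all genes: Serpinb1a by 1.43 ± 0.24 (SE, adjusted p = 3.57e-05; 615 and 603 CPM against 1725, 1668 and 1529 CPM), Clec2h by 0.92, Serpinb6a by 0.80 and Marcksl1 by 0.70. Only the call of Serpinb1a held without each plate in turn. Leaving out CSRM617 plate 1 of day 1 gave 2 calls in place of 4 and leaving out CSRM617 plate 2 gave 1. Clec2h was also lost without plate 1 of RANKL day 1 (-0.78, adjusted p = 0.0669). With each cell weighted equally, Serpinb1a was the 1 call on day 1.

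From day 2 the direction was the other one. On day 2, 3 genes were higher with CSRM617 (Serpinb1a by 1.00, Clec2h by 0.95 and Serpinb6a by 0.85 in log2, beside 5.32% of all genes higher). On day 3, 5 genes were higher, beside 6.95%. Serpinb1a stood at 3692 and 5628 CPM against 1118, 1190 and 849 CPM (2.15 ± 0.22 SE in log2, adjusted p = 3.96e-09), and Serpinb6a at 4073 and 6435 CPM against 1491, 1272 and 1257 CPM (1.97 ± 0.20 SE, adjusted p = 3.7e-09). Lgals3 was higher by 1.66, Ctsh by 0.74 and Marcksl1 by 0.70, and no gene called had overlapping plates. Without CSRM617 plate 2 of day 3, Ctsh (0.48, adjusted p = 0.230) and Marcksl1 (0.68, adjusted p = 0.0737) were lost, leaving 3 genes, and Marcksl1 was also lost without CSRM617 plate 1 (0.64, adjusted p = 0.0773). With each cell weighted equally, Ctsh (0.41) and Marcksl1 (0.45) were lost as well, and on day 2 so were Clec2h (0.95, adjusted p = 0.270) and Serpinb6a (0.85, adjusted p = 0.163). On day 6, 4 genes were higher, beside 9.55%: Lgals3 at 359 and 189 CPM against 5.92, 15.9 and 8.39 CPM (4.79 ± 0.40 SE, adjusted p = 2.64e-11), Clec2h by 3.64, Serpinb1a by 2.87 and Serpinb6a by 1.50. Enterocyte markers summed to 31162 to 33413 CPM on day 3 with CSRM617 against 16369 to 17617 CPM without, each on the scale of its own arm, and other M cell markers to 2499 to 4693 CPM against 1379 to 1727 CPM. The part of these markers and of the lower depth of the CSRM617 cells in the differences was not tested.

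Because day 0 differed as well, the changes from day 0 were compared between arms. On day 1, 0 of the 8 genes passed edgeR's test, beside 0.365% of all genes in either direction, with 3 at an unadjusted p under 0.05 and 0 with DESeq2. On day 2, 2 genes had changed more with CSRM617 (Clec2h by 2.10 and Serpinb1a by 1.56 in log2, beside 2.08% of all genes), on day 3 4 genes (beside 3.82%), on day 4 2 genes (0.297%), on day 5 3 genes (1.11%) and on day 6 4 genes (7.10%). Serpinb1a was called on days 2 to 6, at 1.56, 2.71, 2.98, 2.27 and 3.43, and Serpinb6a on days 3 to 6, at 2.12, 1.46, 1.37 and 1.65. Lgals3 was called on days 3, 5 and 6 (1.90, 3.11 and 5.03) and Clec2h on days 2, 3 and 6 (2.10, 1.72 and 4.79). The values for Marcksl1 lay between -0.997 and 0.41 and those for Ctsh between -0.16 and 0.87, with no call for either on any day.

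Several of these calls rested on 1 plate or were lost when cells were weighted equally and limma replaced edgeR. With each cell weighted equally, both day 2 calls were lost (Clec2h 1.79, adjusted p = 0.251; Serpinb1a 1.51, adjusted p = 0.0812), as were Clec2h (1.07, adjusted p = 0.410) and Lgals3 (1.81) on day 3. Serpinb1a on day 2 was lost without CSRM617 plate 1 of day 0 (1.46, adjusted p = 0.0526), and on day 4 it went to 2.38 without CSRM617 plate 1 of day 4. Clec2h on day 3 was lost without RANKL plate 3 of day 0 (1.34, adjusted p = 0.0650), CSRM617 plate 2 of day 0 (1.47, adjusted p = 0.0773) or CSRM617 plate 2 of day 3 (1.61, adjusted p = 0.0517). Serpinb6a on day 4 was lost without RANKL plate 3 of day 0, CSRM617 plate 2 of day 0 or either CSRM617 plate of day 4 (1.15 to 1.62, adjusted p 0.0688 to 0.177), and on day 5 without CSRM617 plate 2 of day 0 (1.07, adjusted p = 0.133) or plate 2 of day 5 (1.00, adjusted p = 0.148). Lgals3 on day 5 was lost without CSRM617 plate 1 of day 5 (2.50, adjusted p = 0.162) and on day 6 was 4.41 without CSRM617 plate 1 of day 6. With 2000 or more UMIs required per cell, Serpinb6a was lost on days 4 (0.72, adjusted p = 0.497) and 5 (1.00, adjusted p = 0.117).

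**Figure D5:**
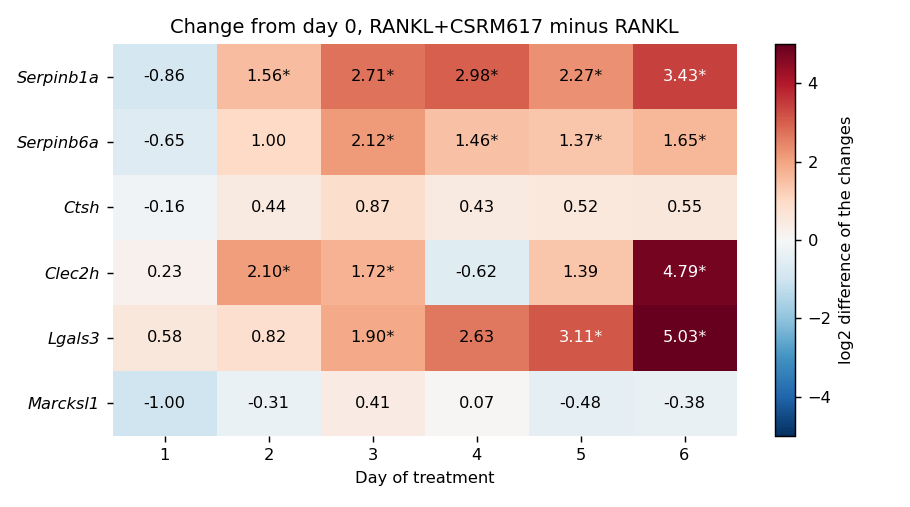
Difference between arms in the change from day 0 (RANKL+CSRM617 minus RANKL, log2, colour and number) for 6 genes (rows) on days 1 to 6 (columns), with a star where edgeR's adjusted p was under 0.05. Serpinb1a carries a star from day 2 to day 6, and Marcksl1 and Ctsh carry none.

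Spib and the genes were also compared within the CSRM617 plates. On days 1 to 3, 297 cells held Spib, and 5 of the 8 genes were higher in them on average over these days, beside 3.89% of 4705 genes tested. Serpinb1a was higher by 2.12 ± 0.10 in log2 (SE, adjusted p = 3.53e-10), running over 6 plates from 1178 to 10438 CPM (median 6112) with Spib and from 433 to 1858 CPM (median 1213) without, higher in 6 of 6 plates. Serpinb6a was higher by 1.51, Clec2h by 1.14 and Marcksl1 by 1.09, each in 6 of 6 plates, and Ctsh by 0.76 in 5 of 6. Lgals3 had -0.39 ± 0.15 (SE, adjusted p = 0.109) and was higher with Spib in 2 of 6 plates. On day 1 alone its difference was -1.38 ± 0.29 (SE, adjusted p = 0.0645), lower with Spib but not past the test. After thinning to 1000 UMIs, Ctsh (0.35, adjusted p = 0.653) and Marcksl1 (0.70, adjusted p = 0.139) were lost, leaving 3 genes. At that depth Serpinb1a was found in 69.0% of 29 cells with Spib and 26.9% of 386 without on day 1, in 86.0% of 86 and 60.6% of 289 on day 2, and in 82.6% of 46 and 46.3% of 149 on day 3. Day by day and without thinning, edgeR called 1 of the 8 genes higher on day 1 (Serpinb1a), 3 on day 2 and 5 on day 3. Over all 4705 genes it called 2, 46 and 176 higher. DESeq2 called 1, 2 and 4 of the 8 genes.

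The Spib difference itself was compared between arms, and 0 of the 8 genes passed edgeR's test, beside 0.0499% of all genes higher and 0.0125% lower, with 1 at an unadjusted p under 0.05 and 0 with DESeq2. That 1 was Marcksl1 (0.60 ± 0.17 SE in log2, adjusted p = 0.209), and Serpinb1a had 0.09 ± 0.18 (SE, adjusted p = 0.946). Within the CSRM617 arm, the Spib difference was larger on day 3 than on day 1 for 3 genes, beside 0.425% of all genes. They were Serpinb6a (by 1.92, adjusted p = 0.00226), Serpinb1a (by 1.46, adjusted p = 0.00768) and Ctsh (by 1.39, adjusted p = 0.0445). These calls did not last: DESeq2 called 1 gene, cells thinned to 1000 UMIs gave 0, and asking for at least 2 Spib UMIs gave 1. With thinned cells the value of Serpinb1a turned to -0.25 (adjusted p = 0.978). It was also lost without CSRM617 plate 2 of day 1 (1.15, adjusted p = 0.125), and Ctsh was lost without either plate of day 1, plate 2 of day 2 or plate 1 of day 3 (1.22 to 1.44, adjusted p 0.0538 to 0.412).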

How the data were processed

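Single-cell RNA-seq was made with a modified CEL-Seq2 protocol from sorted wells of 44 plates, per the labels' protocols. The authors deposited raw UMI counts per gene and well in 1 table for each arm. The submitters' processing notes name kallisto, bustools, Seurat 3.1.5 and GRCm38. The version of kallisto and bustools is not given in the sources used here, nor is the handling of reads shared by near-identical genes. No per-sample column was left out (0 in each table).

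From these counts, wells with under 1000 UMIs were dropped and the others summed per plate. No doublet caller was run, since wells were sorted as single cells, and 0 wells had the same counts as another. The most abundant gene made up 10.8% (RANKL) and 14.4% (RANKL+CSRM617) of all UMIs. Sums were fitted across all genes with edgeR 4.0.16 (R 4.3.3; filterByExpr, TMM, quasi-likelihood test, all days of an arm or of both arms in 1 fit), with Benjamini-Hochberg adjustment and a threshold of 0.05. Cells with and without a Spib UMI were summed per plate, with at least 10 cells a sum and the plate as a block. Cells were clustered with scanpy 1.11.5 and leidenalg 0.10.2, leaving out the 8 genes. On simulated counts, 100 genes were changed at each size, drawn from the better expressed of the genes tested. In RANKL day 3 against day 0 (10000 genes tested), a log2 change of 2 was recovered for 93% of these and a change of 1 for 62%. For RANKL+CSRM617 day 3 against day 0 (6499 genes) the shares were 71% and 16%, and between arms on day 3 (8766 genes) 81% and 29%. Of all calls, 2.52%, 5.43% and 5.98% were false, in that order. For the Spib comparison, 7.62% of calls with RANKL and 2.87% with RANKL+CSRM617 were false.

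The genes named are the 8 and Spib. Like genes are the 3 with the highest r, and of each family list at most 4 members that passed the test and changed most. The members and lists were chosen with earlier results of these data known. Alternatives were DESeq2 1.42.0, every deposited well, 2000 or more UMIs, equal weight per cell, thinning to 1000 UMIs, at least 2 Spib UMIs, no filter on low counts, the most abundant gene left out, only the groups compared, a replicate block, and each plate left out. Equal weight per cell was tested with limma 3.58.1 on log2 values, so it changed the test as well as the weighting.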

Additional observations from a re-analysis of the deposited data

Results flagged for a closer look

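Of 24 sets of 6 or 9 plate values that were looked at for a plate far from the rest, 0 held one. Each set was a gene's sums over cells with or without Spib, pooled over the days of that comparison. Differences between days widen such a set, so a plate apart from the others of its day can be missed. Plates of the remaining days were not looked at in this way. In 18 cases the effect of 1 contrast differed between groups by edgeR's test of the difference itself, with Benjamini-Hochberg adjustment over all genes.

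Of these, 15 were changes from day 0 that were larger with RANKL+CSRM617 than with RANKL (log2 difference of changes). For Serpinb1a they were 1.56 on day 2, 2.71 on day 3, 2.98 on day 4, 2.27 on day 5 and 3.43 on day 6. For Serpinb6a they were 2.12 on day 3, 1.46 on day 4, 1.37 on day 5 and 1.65 on day 6. Clec2h gave 2.10 on day 2, 1.72 on day 3 and 4.79 on day 6, and Lgals3 gave 1.90 on day 3, 3.11 on day 5 and 5.03 on day 6. Median UMIs per cell were lower in the CSRM617 plates, and the arm cannot be told apart from the set of plates.

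The other 3 were Spib differences within the RANKL+CSRM617 arm that were larger on day 3 than on day 1. Serpinb6a gave 1.92, Serpinb1a 1.46 and Ctsh 1.39 in log2.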

How the results depend on the processing

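Over 318 results on single genes, 4424 alternative values were computed. Of these, 4186 kept their side of the threshold, 182 kept the direction and lost the call, 55 gained a call and 1 reversed a called result. Direction was followed for called results only. A result that was not called may have changed sign and still count among the 4186 or the 55. The reversal was the Spib difference of Serpinb1a on day 3 minus day 1 with RANKL+CSRM617, -0.25 in log2 in thinned cells. Equal weight per cell gave 1 gene lower between arms on day 1 (4 as reported), 3 higher on day 3 (5), 2 changed more with CSRM617 on day 3 (4), 221 of all genes past the test for RANKL+CSRM617 day 3 (1167) and 84 for the change between arms on day 3 (479). That setting, in which limma also replaced edgeR, moved the median of all genes in the change between arms from -0.01 to -0.24 on day 3 and from -0.06 to -0.46 on day 6. Thinning left 3 of 5 Spib calls with RANKL+CSRM617, 90 genes past the Spib test with RANKL (893) and 71 with RANKL+CSRM617 (443). DESeq2 gave 261 and 114 genes for those tests, and at least 2 Spib UMIs gave 1685 with RANKL. The larger Spib differences on day 3 with RANKL+CSRM617 (3 genes) were 1 with DESeq2, 0 in thinned cells and 1 with at least 2 Spib UMIs. On thinned shares, 0 genes were at their midpoint on day 1 with RANKL+CSRM617 (1 as reported). Leaving out 1 plate gave 1 to 4 genes lower between arms on day 1, 3 to 6 higher on day 3 and 1 to 3 for the Spib difference on day 3 minus day 1. Over all genes it gave 527 to 825 calls for RANKL+CSRM617 day 3, lowest without its plate 2 of day 3 (651 without plate 1 and 756 without plate 2 of its day 0), 163 to 510 for the change on day 3 (163 without CSRM617 plate 2 of day 3, 245 without CSRM617 plate 2 and 319 without RANKL plate 3 of day 0) and 197 to 367 for Spib with RANKL+CSRM617 (197 without plate 1 of day 1). Plates with the same number did not deviate together (135 RANKL pairs, r from -0.38 to 0.29, 27 over 0.1; 42 RANKL+CSRM617 pairs, r from -0.32 to 0.29, 6 over 0.1), and 14 of 30 and 4 of 14 plates were closest to their own number. A replicate block kept 250 of 252 results, lost Clec2h on day 5 of RANKL (0.60, adjusted p = 0.0633) and gained 1.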
